A study of Mus musculus with 2 samples.

Results

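Molecular motors are the ATP-driven proteins that move along the cytoskeleton, and 57 genes for motor subunits could be followed in tendon cells under mechanical shear. They were taken by symbol from the array annotation: the Kif genes (kinesins), the Dync, Dynl and Dnah genes (dyneins), and the Myo and Myh genes (myosins). These 57 were among 10791 genes with a value on at least 1 array, and 53 of them had a value on both. The set held 5 dynein light chains, 5 dynein intermediate or light intermediate chains, and 47 heavy chains, the chains that carry the motor domain.

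Kinesins mostly walk toward the growing ends of microtubules, and cytoplasmic dynein walks toward the other ends. Myosins pull on actin filaments. In fibroblast-like cells such as tenocytes, nonmuscle myosin provides contractile tension against the matrix, and microtubule motors place organelles and carry secretory cargo such as procollagen. A dynein heavy chain works as a large complex with intermediate, light intermediate and light chains, and a myosin heavy chain binds light chains or calmodulin at its neck.

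The study asked what shear does to flexor tendon cells of the mouse. Pooled cells sheared for 6 h were hybridised against pooled control cells of 6 h, and cells sheared for 12 h at 50 rpm against control tenocytes of 12 h. Sheared RNA carried Cy5 and control RNA Cy3 on both arrays, so the dyes were not swapped; the labels give no strain, age or passage. There was 1 spotted two-colour array per time point. No difference could therefore be tested, and higher and lower describe these arrays only.

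All values are log2 ratios of sheared over control cells after subtraction of the median of each array, -0.323 at 6 h and -0.479 at 12 h, so that without centring every value lies lower by that amount. The base of 2 was assumed, and the direction is likely rather than certain; were it opposite, every sign below would turn. The deposited table held 39776 measured spots at 6 h and 41717 at 12 h. The probes of a gene, with repeated spots of a clone included, had a pooled SD of 0.74 log2 at 6 h (5396 genes) and 0.86 at 12 h (5579 genes). For motor genes this SD was 0.86 at 6 h (30 genes) and 0.92 at 12 h (32 genes). Probe SD is the only error available; it covers spots and clones, not cultures. Of the motor genes, 32 had 2 or more probes and 25 had 1. Intensities were not used here, so it cannot be said how bright a spot was or whether a gene was expressed at all. Of 10 tenocyte markers 6 had values, from -0.45 to 0.55 at 6 h and from -0.48 to 0.75 at 12 h, and ratios do not show whether the labelled cell type is right.

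The sequences upstream of 4 genes that carry the contrast described below are shown first: the light chain genes Dynll1 and Dynlrb1, which read high in sheared cells, then the heavy chain genes Dync1h1 and Myh9, which read low. Each is the 250 bases before the annotated start, 5′ to 3′ on the strand of the gene, from RefSeq on GRCm38.p6. For Dynll1 it is chr5:115300991-115301240 on the minus strand and for Dynlrb1 chr2:155236283-155236532 on the plus strand, the first of 2 listed starts. For Dync1h1 it is chr12:110601145-110601394 on the plus strand and for Myh9 chr15:77842176-77842425 on the minus strand. Capitals mark matches, on either strand, to GGGCGG (the GC box), CCAAT (the CCAAT box), TATAAA (the TATA box), TGACGTCA (the cyclic AMP response element), TGACTCA (the AP-1 site) or CACGTG (the E-box), and no marked motif overlapped another.
Dynll1: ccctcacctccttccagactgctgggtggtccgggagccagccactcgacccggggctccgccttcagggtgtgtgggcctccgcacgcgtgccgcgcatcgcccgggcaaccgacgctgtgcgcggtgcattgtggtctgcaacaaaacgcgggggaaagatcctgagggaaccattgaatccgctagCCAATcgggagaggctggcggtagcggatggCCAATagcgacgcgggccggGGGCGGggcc
Dynlrb1: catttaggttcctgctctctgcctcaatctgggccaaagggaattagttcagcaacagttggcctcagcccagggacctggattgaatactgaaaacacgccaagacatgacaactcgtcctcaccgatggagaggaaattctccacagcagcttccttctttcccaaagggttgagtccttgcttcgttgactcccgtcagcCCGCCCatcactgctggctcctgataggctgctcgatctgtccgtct
Dync1h1: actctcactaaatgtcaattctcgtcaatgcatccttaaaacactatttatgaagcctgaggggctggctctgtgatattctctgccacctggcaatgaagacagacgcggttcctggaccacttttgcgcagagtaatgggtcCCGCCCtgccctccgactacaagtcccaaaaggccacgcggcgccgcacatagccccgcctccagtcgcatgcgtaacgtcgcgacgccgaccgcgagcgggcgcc
Myh9: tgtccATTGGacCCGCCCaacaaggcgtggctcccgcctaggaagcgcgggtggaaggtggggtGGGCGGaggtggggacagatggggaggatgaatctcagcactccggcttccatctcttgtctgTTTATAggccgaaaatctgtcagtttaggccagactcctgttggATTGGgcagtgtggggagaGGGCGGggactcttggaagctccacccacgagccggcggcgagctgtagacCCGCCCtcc

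A GC box was present in all 4 of these windows, with 1 match in Dynll1, 1 in Dynlrb1, 1 in Dync1h1 and 4 in Myh9. Promoters were listed for 47 motor genes, each counted at its first listed start. The background of all promoters counts every listed start, so a gene with several starts enters it more than once. A GC box lay upstream of 4 of 4 dynein light chain genes and of 25 of 40 heavy chain genes, against 32.7% of 32851 promoters in the table. The CCAAT box lay upstream of 1 of 4 light chain and 15 of 40 heavy chain genes, against 33.9% of all promoters, and the TATA box upstream of 0 of 4 and 7 of 40, against 12.4%. The AP-1 site and the cyclic AMP response element were each found upstream of 0 of 4 light chain genes and 1 of 40 heavy chain genes, against 4.46% and 1.55% of all promoters. The E-box was found upstream of none of the 47, against 6.02%. The windows of motor genes had a median GC content of 59.2%, that of heavy chain genes being 60.8%, against 52.4% over all promoters, and a GC box is itself made of G and C. Matches describe letters only.

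Taken as a family, the motor genes read slightly low in sheared cells, and the medians of dynein light chains and of motor heavy chains lay on opposite sides of 0. Single genes did not all follow: 10 of 46 heavy chains at 6 h and 14 of 44 at 12 h were above 0. Of the 5 light chains, 1 was below 0 at 6 h. The median of all motor genes was -0.46 at 6 h (56 genes) and -0.33 at 12 h (54 genes), beside -0.11 and -0.14 over all named genes. At 6 h, 12 of 56 motor genes (21.4%) were at least 2-fold lower, against 18.8% of all named genes, and 1 (1.79%) was at least 2-fold higher, against 6.2%. At 12 h, 14 of 54 (25.9%) were at least 2-fold lower, against 20.5% of all named genes, and 4 (7.41%) at least 2-fold higher, against 14.5%. The share of lower genes was therefore near the background on each array.

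On both arrays together, 7 of 53 motor genes (13.2%) were at least 2-fold lower, against 9.8% of all named genes, and 0 of 53 were at least 2-fold higher, against 4.34%. The 7 were Kif1b, Dync1h1, Dnah9, Myh9, Myo5a, Myo5b and Myo10, and each is a heavy chain. Across the 53 genes the 2 arrays, which have separate controls, correlated with a Pearson r of 0.76 and a Spearman coefficient of 0.72, beside 0.66 and 0.74 over all named genes; genes are not independent replicates. The median difference of 12 h minus 6 h was 0.10 for motor genes and 0.12 for all named genes. Without centring the motor gene median difference was -0.05.

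**Figure D1:**
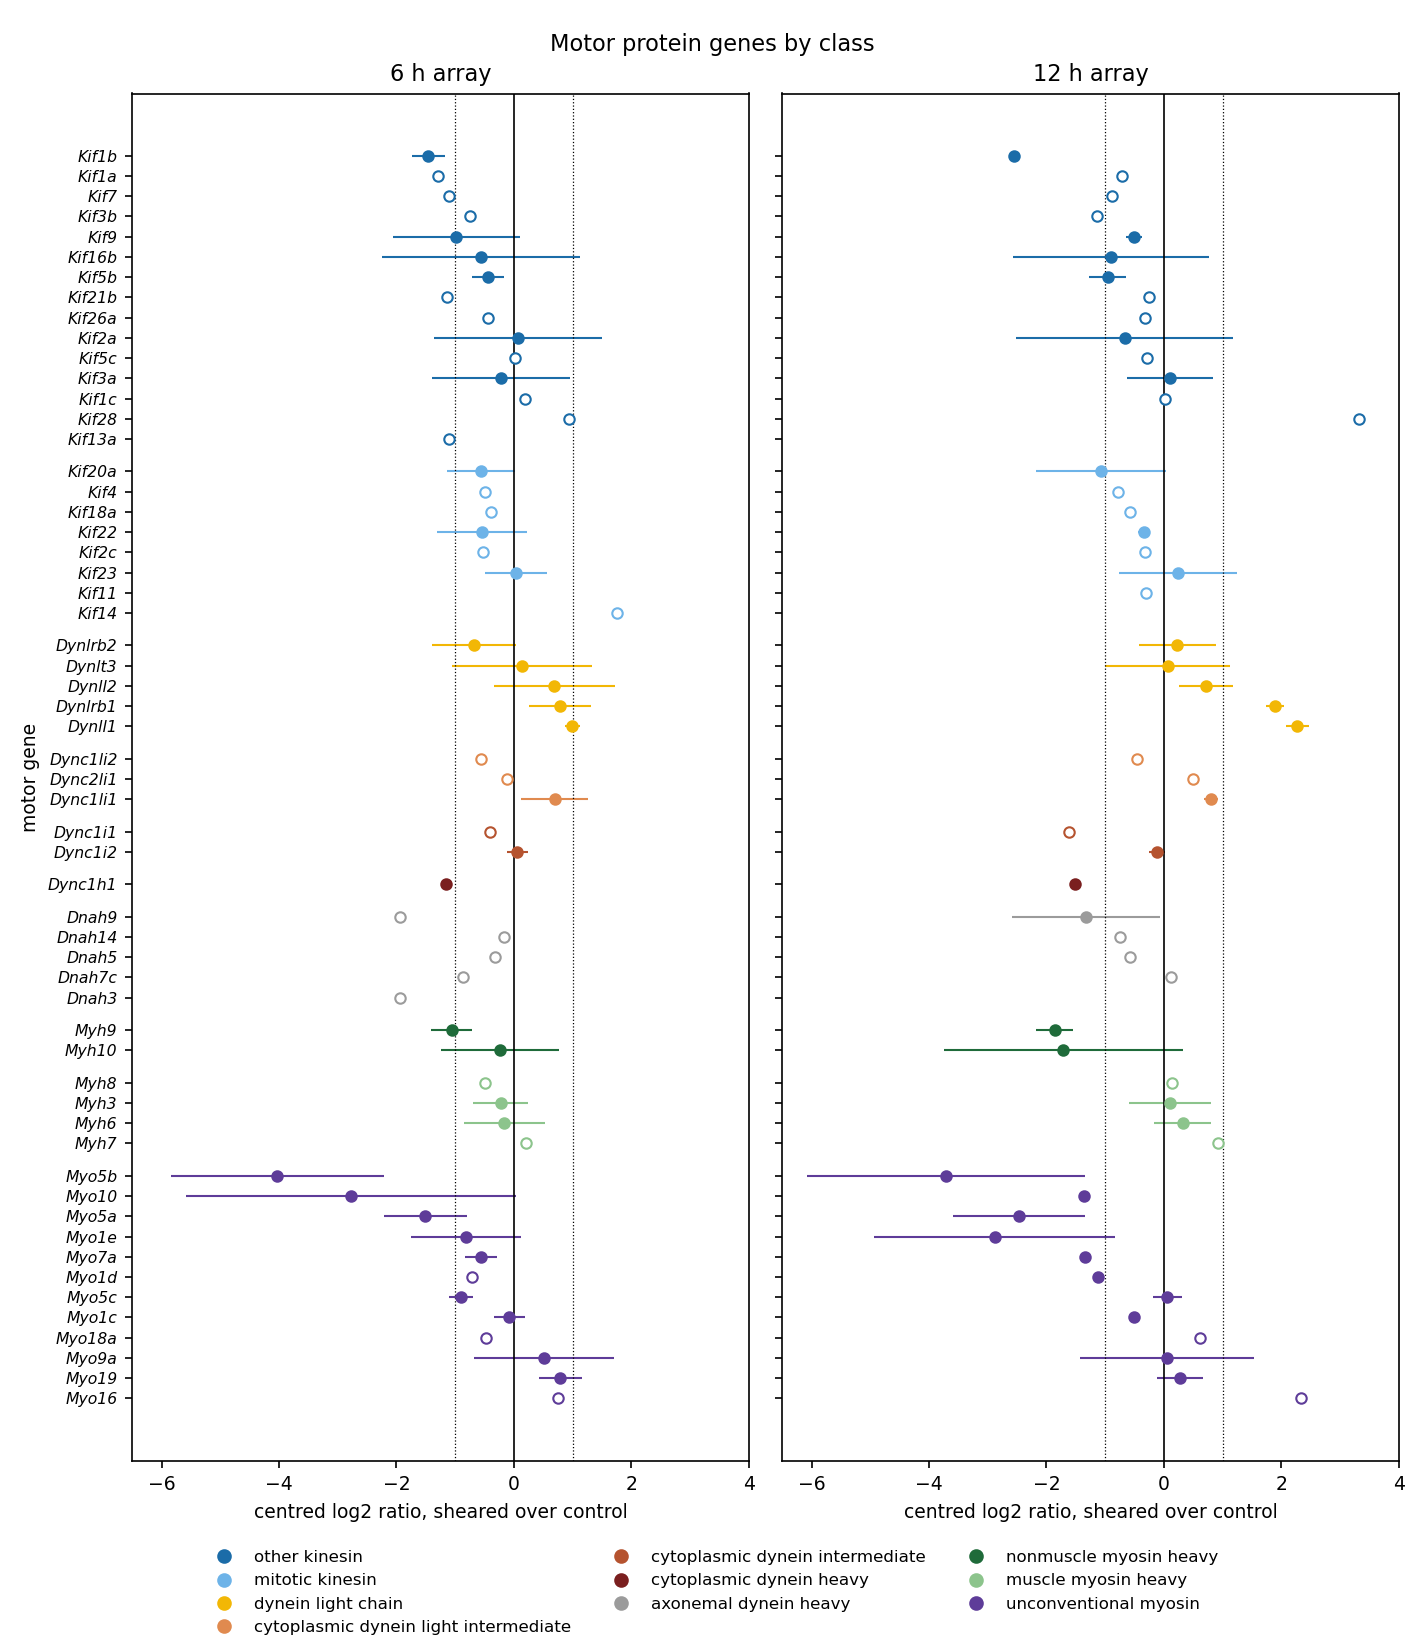
Centred log2 ratio of sheared over control (horizontal axis) of each of the 57 motor genes at 6 h (left) and 12 h (right), grouped and coloured by class; bars are the SD between probes, open circles rest on 1 probe, and dotted lines mark 2-fold. Dynll1 and Dynlrb1 stood at 2.27 and 1.90 at 12 h, while Dync1h1 stood at -1.51 and Myh9 at -1.86.

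Cytoplasmic dynein, the minus-end motor of microtubules, had chains on both sides of 0. Its light chains Dynll1 and Dynlrb1 read higher in sheared cells, while its heavy chain Dync1h1 read lower, and the order was the same on both arrays. Dynll1, a small dimer that binds the dynein intermediate chain and many other partners, had 6 probes at 0.92, 1.14, 0.84, 1.04, 1.18 and 0.95 at 6 h. At 12 h the same 6 probes stood at 2.18, 2.25, 2.29, 2.40, 2.67 and 2.13. All probes thus lay above 0 on each array and the ranges of the arrays did not overlap. How often this holds over all named genes was not counted, and probes are not replicate cultures. The 12 h array also had more named genes at least 2-fold higher, 14.5% against 6.2% at 6 h. The gene's value was 0.99 at 6 h (probe SD 0.13), a 1.99-fold higher level, and 2.27 at 12 h (probe SD 0.19), a 4.83-fold higher level.

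Dynlrb1, a light chain of the roadblock family that also binds the intermediate chain, had 3 probes at 1.63, 0.78 and 0.66 at 6 h and at 1.84, 2.13 and 1.90 at 12 h. Its value was 0.78 at 6 h and 1.90 (3.73-fold) at 12 h, with probe SDs of 0.53 and 0.15. The remaining light chains stood closer to 0 or had scattered probes. Dynll2, the close paralog of Dynll1, which can share signal with it, had probes at -0.04 and 1.42 at 6 h and at 0.39 and 1.04 at 12 h, for values of 0.69 and 0.72. It also serves as a light chain of myosin V.

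Dynlt3, of the Tctex family, stood at 0.14 at 6 h (probe SD 1.19) and 0.07 at 12 h (probe SD 1.06), and its probes lay on both sides of 0 on each array. Dynlrb2, the second roadblock gene, stood at -0.68 (probe SD 0.71) and 0.23 (probe SD 0.66). Dynlt1 copies were spotted only on probes with several symbols, which were not used for the medians, and these 3 spots disagreed. The Dynlt1a spot stood at -0.005 at 6 h and -0.11 at 12 h, 1 spot of several copies at 0.87 and 1.80, and another at -1.02 and -1.87. All 5 light chain genes were above 0 at 12 h and 4 of 5 at 6 h, beside 4753 of 10731 and 4622 of 10346 named genes. Without centring the values of Dynlt3 on both arrays and of Dynlrb2 at 12 h were below 0. With the mean of its probes Dynlt3 was also below 0 at 6 h (-0.37).

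The motor-bearing subunit itself read low. Dync1h1 had 2 probes, at -1.20 and -1.11 at 6 h and at -1.55 and -1.47 at 12 h, for values of -1.15 (2.22-fold lower) and -1.51 (2.84-fold lower) with a probe SD of 0.06 on each array. Dynll1 thus exceeded Dync1h1 by 2.14 log2 at 6 h and by 3.78 at 12 h, and Dynlrb1 by 1.94 and 3.40. These gaps are larger than the probe SDs of the genes concerned, but no replicate array bears on them.

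The other subunits of cytoplasmic dynein were mixed. Dync1i2, the broadly expressed intermediate chain, had 5 probes between -0.20 and 0.24 at 6 h and between -0.31 and 0.01 at 12 h, for values of 0.06 and -0.12; the first was -0.26 without centring. Dync1i1, the intermediate chain best known from neurons, stood at -0.41 and -1.62 on 1 probe. A further Dync1i1 spot with several symbols stood at -0.20 and -0.74, and with it kept the gene stood at -0.31 and -1.18. The order of Dync1i1 and the heavy chain at 12 h thus depended on that spot. Dync1li1, a light intermediate chain that contacts cargo adaptors, stood at 0.70 (probe SD 0.57) and 0.81 (probe SD 0.12), and its relative Dync1li2 at -0.56 and -0.46 on 1 probe. Dync2li1 belongs to the dynein of intraflagellar transport and stood at -0.12 and 0.50 on 1 probe.

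**Figure D2:**
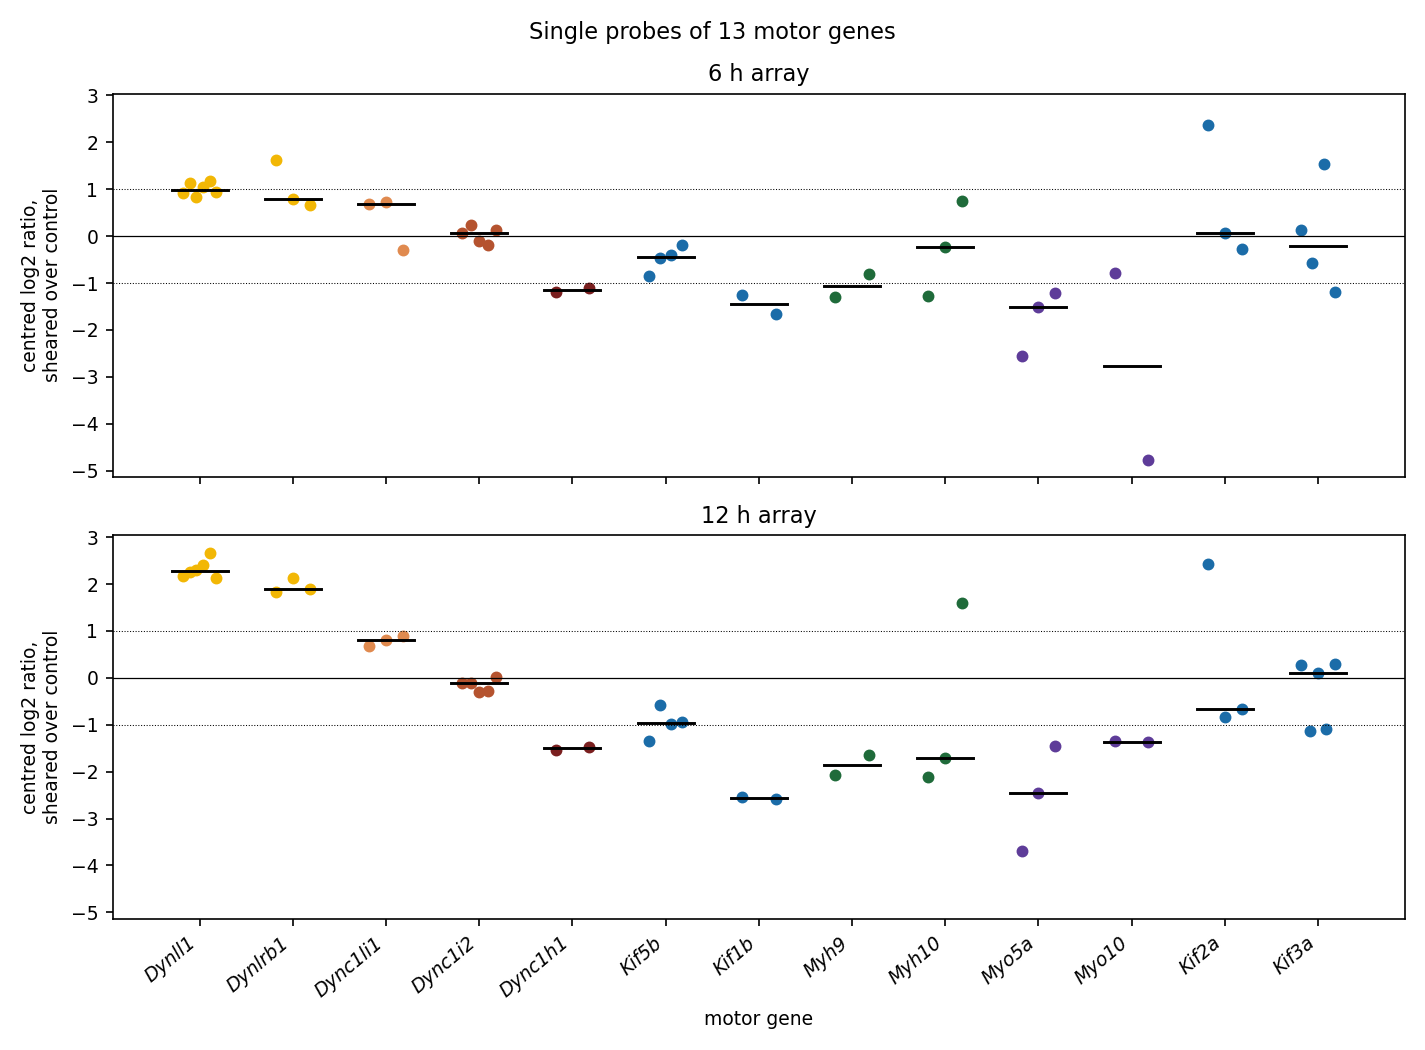
Centred log2 ratio of sheared over control (vertical axis) of every probe of 13 motor genes with several probes, at 6 h (top) and 12 h (bottom); points are probes, black bars the gene median, colours the class and dotted lines 2-fold. The 6 probes of Dynll1 spanned 0.84 to 1.18 at 6 h and 2.13 to 2.67 at 12 h, while probes of Kif2a, Kif3a and Myh10 lay on both sides of 0.

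Over the whole family the median of the light chains stood above that of the heavy chains. The 5 dynein light chains had a median of 0.69 at 6 h and 0.72 at 12 h. On both arrays that median is the value of 1 gene, Dynll2, whose 2 probes had an SD of 1.03 at 6 h and 0.46 at 12 h. The heavy chains of all motors had a median of -0.51 at 6 h (46 genes) and -0.54 at 12 h (44 genes). The difference of these medians was 1.20 log2 at 6 h and 1.26 at 12 h, which is 2.29-fold and 2.40-fold. The ranges overlapped: 4 heavy chains at 6 h and 3 at 12 h were above the light chain median. With probes of several symbols kept, which adds the Dynlt1 copies, the difference was 0.64 at 6 h and 0.74 at 12 h.

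Myosin light chains, which are not among the 57 genes, gave a further view of the same comparison. Of 15 listed light chains and calmodulins, 12 had values, with medians of 0.27 at 6 h and 0.87 at 12 h. At 6 h 8 of 12 were above 0, beside 4622 of 10346 named genes. Of the 12, 2 were at least 2-fold higher (16.7%), against 6.2% of all named genes, and 2 at least 2-fold lower (16.7%), against 18.8%. At 12 h all 12 were above 0, beside 4753 of 10731 named genes. Of the 12, 5 were at least 2-fold higher (41.7%), against 14.5% of all named genes, and none 2-fold lower, against 20.5%. Myl6, the essential light chain of nonmuscle myosin, stood at 0.58 at 6 h (probe SD 0.36) and 1.92 at 12 h (probe SD 1.18), and the regulatory light chain Myl12b at 0.76 (probe SD 0.55) and 1.71 (probe SD 0.37). Calm2, one of the calmodulin genes, stood at 1.04 (probe SD 0.21) and 1.79 (probe SD 0.17).

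The list of kinesin light chains and related genes, read as a whole, did not follow them, but it also holds kinesins with a motor domain (Kifc1, Kifc2, Kifc3 and Cenpe). Of 9 listed kinesin light chains, adaptors and further kinesins, 7 had values, with medians of -0.24 and -0.40. At 6 h 1 was at least 2-fold lower (14.3%), against 18.8% of all named genes, and none was at least 2-fold from 0 at 12 h. The light chains proper stood near 0: Klc1 at 0.05 (probe SD 0.04) and 0.33 (probe SD 1.42), and Klc4 at -0.24 (probe SD 0.60) and -0.20 (probe SD 0.97). Kifap3, which joins the Kif3 motors to cargo, stood at -0.33 (probe SD 0.36) and -0.92 (probe SD 0.44) over 6 probes. Kifc2 stood at -1.61 and -0.87 on 1 probe, and Cenpe, a mitotic kinesin of the kinetochore, at 0.97 and -0.40.

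**Figure D3:**
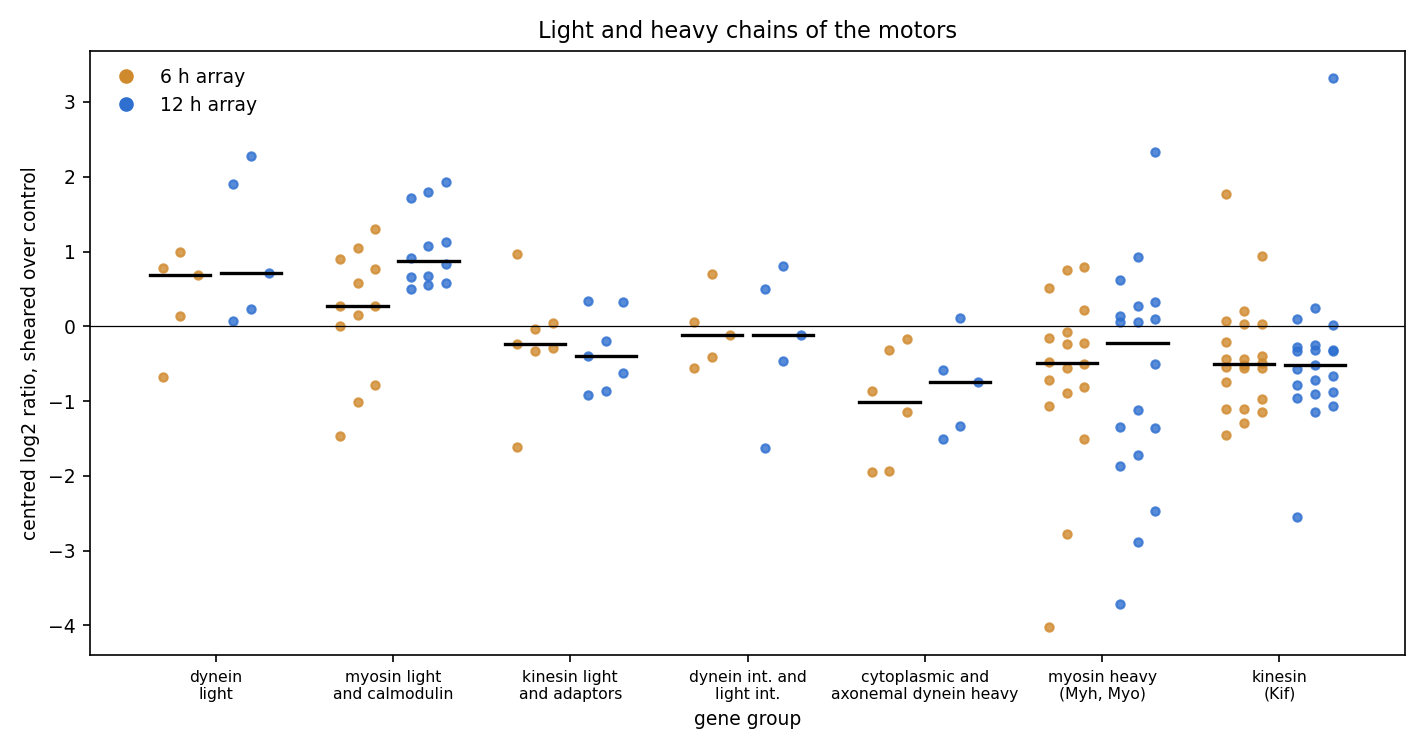
Centred log2 ratio of sheared over control (vertical axis) of the genes of each light or heavy chain group at 6 h (orange) and 12 h (blue); points are genes and black bars medians. Dynein light chains had medians of 0.69 and 0.72 and myosin light chains with calmodulins 0.27 and 0.87, while kinesins had medians of -0.50 and -0.51. The group of kinesin light chains and adaptors also holds Kifc1, Kifc2, Kifc3 and Cenpe, which carry a motor domain.

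Nonmuscle myosin II, the motor of fibroblast contractility, read low in its heavy chains. Myh9, heavy chain of myosin IIA, had probes at -1.31 and -0.81 at 6 h and at -2.08 and -1.64 at 12 h. Its value was -1.06 (2.09-fold lower, probe SD 0.35) at 6 h and -1.86 (3.64-fold lower, probe SD 0.31) at 12 h, and every probe lay below 0. Myl6 exceeded Myh9 by 1.64 log2 at 6 h and by 3.79 at 12 h, and Myl12b by 1.82 and 3.58.

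Myh10, heavy chain of myosin IIB, was less certain. Its 3 probes stood at -1.28, -0.24 and 0.74 at 6 h and at -2.12, -1.72 and 1.59 at 12 h, so 1 probe went against the rest on each array. The median was -0.24 at 6 h and -1.72 at 12 h, and the mean of the probes at 12 h was -0.75.

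The muscle myosin heavy chains stayed near 0. Myh3 (embryonic), Myh6 (cardiac alpha), Myh7 (slow and cardiac beta) and Myh8 (perinatal) ranged from -0.50 to 0.21 at 6 h and from 0.10 to 0.93 at 12 h, and none was 2-fold from 0. Myh7 was the highest at 0.21 and 0.93 and Myh8 the lowest by mean at -0.50 and 0.14, each on 1 probe, and these heavy chains are similar enough to share signal. The median of the 4 at 12 h, 0.23, was -0.25 without centring. Skeletal muscle markers were above 0 for 5 of 7 genes at 6 h (-0.76 to 0.58) and 5 of 9 at 12 h (-5.40 to 0.39), and smooth muscle markers for 4 of 4 on both arrays (0.02 to 0.86 and 0.16 to 1.55). Over all named genes, 4622 of 10346 were above 0 at 6 h and 4753 of 10731 at 12 h. The part of muscle cells in the myosin values was not tested.

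Unconventional myosins, which carry cargo or link membranes to actin, held the lowest values of the family. Their 12 members had medians of -0.64 at 6 h and -0.81 at 12 h, with 3 at least 2-fold lower at 6 h (25%), near the 18.8% of all named genes, and 6 at 12 h (50%), against 20.5%. Myo5a, the class V carrier of vesicles and melanosomes, had probes at -2.56, -1.51 and -1.22 at 6 h and at -3.69, -2.46 and -1.44 at 12 h. All its probes were low on each array, for values of -1.51 (2.85-fold lower, probe SD 0.70) and -2.46 (5.52-fold lower, probe SD 1.12).

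Myo5b, which moves recycling endosomes, was the lowest motor gene. Its 2 probes stood at -5.31 and -2.74 at 6 h and at -5.38 and -2.04 at 12 h, for values of -4.03 and -3.71 with probe SDs of 1.82 and 2.36. Its class V relative Myo5c stood at -0.90 (probe SD 0.20) and 0.06 (probe SD 0.25), so the class did not share 1 value.

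Among myosins of the cell edge and membrane, Myo10, which travels to filopodial tips, had probes at -0.79 and -4.77 at 6 h and at -1.35 and -1.38 at 12 h. The 12 h value of -1.36 therefore rests on agreeing probes (probe SD 0.02), and the 6 h value of -2.78 (probe SD 2.82) does not. Myo1e, a class I myosin of adhesions and endocytosis, stood at -0.82 (probe SD 0.94) and -2.88 (probe SD 2.06), and its difference of -2.07 was the lowest of the 53 genes.

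Other class I members and Myo7a, a myosin known from hair cells of the ear, also lay at or below 0. Myo1d stood at -0.72 and -1.12, Myo1c at -0.08 and -0.50, and Myo7a at -0.56 and -1.34. The 2 spots of Myo7a carry a single clone and differed by 0.39 at 6 h and 0.08 at 12 h.

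A few unconventional myosins had a value above 0 on at least 1 array. Myo16 stood at 0.76 at 6 h and 2.34 at 12 h, 5.05-fold higher, on 1 probe. Myo19, the mitochondrial myosin, stood at 0.79 (probe SD 0.37) and 0.27 (probe SD 0.39). Myo9a stood at 0.51 and 0.06 with probe SDs of 1.19 and 1.48, and Myo18a stood at -0.48 and 0.62 on 1 probe. Without centring the 12 h values of Myo19 and Myo9a were -0.21 and -0.42.

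**Figure D4:**
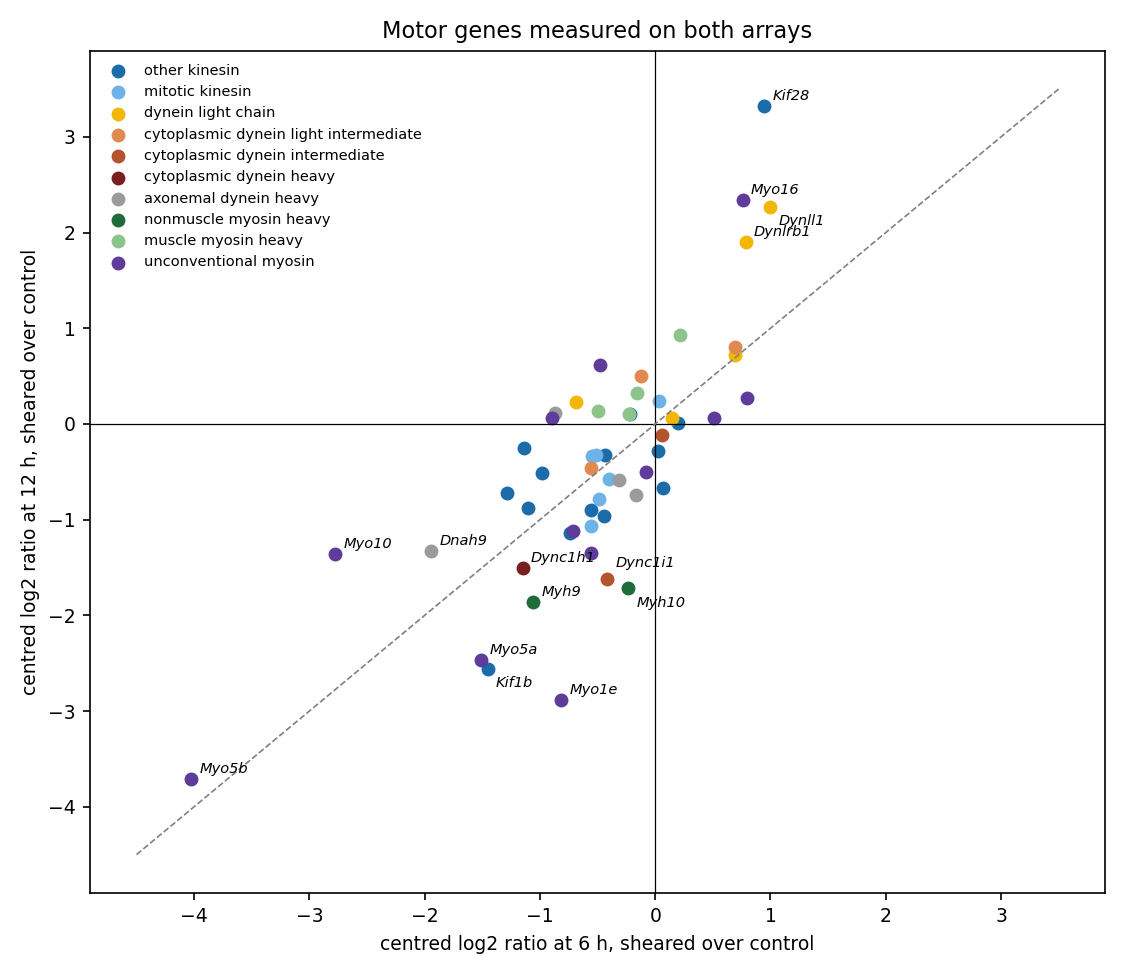
Centred log2 ratio of sheared over control at 6 h (horizontal) and 12 h (vertical) of the 53 motor genes measured on both arrays, coloured by class; the dashed line marks equal values. Kif28 (0.94 and 3.32), Myo16, Dynll1 and Dynlrb1 lie at the upper right and Myo5b (-4.03 and -3.71) at the lower left.

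The kinesins, most of them plus-end motors, had more members below 0 than above it. Below 0 were 16 of 22 kinesins at 6 h and 17 of 21 at 12 h, beside 5720 of 10346 and 5971 of 10731 named genes. At least 2-fold lower were 5 at 6 h (22.7%) and 3 at 12 h (14.3%), against 18.8% and 20.5% of all named genes, so these shares were near or below the background. Their medians were -0.50 and -0.51. Kif1b, which carries mitochondria and vesicle precursors, was the lowest: its probes stood at -1.26 and -1.65 at 6 h and at -2.53 and -2.58 at 12 h. Its value was -1.46 (2.74-fold lower, probe SD 0.28) at 6 h and -2.56 (5.88-fold lower, probe SD 0.03) at 12 h.

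Of the common transport motors, Kif5b and Kif3b lay closer to 0 than Kif1b and on the same side. Kif5b, the broadly expressed heavy chain of conventional kinesin, had 4 probes from -0.86 to -0.19 at 6 h and from -1.36 to -0.58 at 12 h, for values of -0.44 and -0.96. All 4 were below 0 on each array. Its relative Kif5c stood at 0.03 and -0.28 on 1 probe. Kif3b, a subunit of the motor that builds cilia, stood at -0.74 and -1.14 on 1 probe.

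Several kinesins had probes too scattered to give a direction. Kif3a, partner of Kif3b, had spots of a single clone at 1.53 and -1.20 at 6 h and at 0.10 and -1.08 at 12 h, and a median of -0.22 and 0.10 over all its probes. For Kif2a, which takes microtubules apart, 2 spots of a single clone stood at 2.36 and -0.26 at 6 h and at 2.44 and -0.67 at 12 h. Kif16b, a motor of early endosomes, had probes at -1.75 and 0.64 at 6 h and at -2.08 and 0.28 at 12 h.

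The remaining transport kinesins rested mostly on 1 probe. Kif1a, a carrier of synaptic vesicle precursors, stood at -1.29 and -0.72, Kif7, a regulator of hedgehog signalling, at -1.10 and -0.88, and Kif21b at -1.14 and -0.26. Kif9 stood at -0.98 (probe SD 1.09) and -0.51 (probe SD 0.14), Kif26a at -0.44 and -0.32, and Kif1c at 0.20 and 0.01. Kif13a stood at -1.10 at 6 h and had no value at 12 h. Kif28 was the highest motor gene at 12 h, at 3.32 (9.97-fold higher) after 0.94 at 6 h, on 1 probe with no check of its own.

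The mitotic kinesins, which build the spindle and divide the cell, had medians of -0.49 at 6 h (7 genes) and -0.34 at 12 h (7 genes). Kif20a, needed for cytokinesis, stood at -0.56 (probe SD 0.58) and -1.07 (probe SD 1.10), and 2 spots of a single clone differed by 1.08 and 2.18. Kif23, a core part of the central spindle, stood at 0.04 and 0.24 with probes on both sides of 0 on each array, and its sign turned without centring. Kif14, also needed for cytokinesis, stood at 1.76 at 6 h on 1 probe and had no value at 12 h, whereas Kif11, which pushes spindle poles apart, had only a 12 h value, of -0.31.

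Kif2c, Kif4, Kif18a and Kif22 lay between -0.55 and -0.40 at 6 h and between -0.79 and -0.32 at 12 h. Of 13 measured markers of proliferating cells, 11 were below 0 at 6 h and 9 at 12 h, beside 5720 of 10346 and 5971 of 10731 named genes. The markers had medians of -0.43 and -0.18 and ranges of -3.20 to 0.68 and -2.51 to 0.74. Their part in the mitotic kinesin values was not tested.

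Axonemal dyneins, the motors of motile cilia, were below 0 for 5 of 5 genes at 6 h and 3 of 4 at 12 h. Over all named genes, 5720 of 10346 and 5971 of 10731 were below 0. All 5 values at 6 h rest on 1 probe, and of named genes with 1 probe on each array 2972 of 4669 were below 0 at 6 h. Dnah9 stood at -1.94 on 1 probe at 6 h and at -1.33 (probe SD 1.26) at 12 h. Dnah3 stood at -1.95 at 6 h only, Dnah7c at -0.87 and 0.12, Dnah5 at -0.31 and -0.58, and Dnah14 at -0.17 and -0.74, each on 1 probe. Measured markers of ciliated cells were below 0 for 4 of 4 genes at 6 h (-2.68 to -0.86) and 5 of 5 at 12 h (-2.26 to -0.23). Of 10 listed axonemal partner and assembly genes, 6 had values, with medians of -0.43 and -0.31. Dnaaf2, which assembles dynein arms before they enter the cilium, stood at 1.61 (probe SD 0.30) and 0.56 (probe SD 0.79), and Dnal1 and Dnaaf4 at -1.13 and -0.86 at 6 h and at -0.81 and -0.34 at 12 h. Whether tenocytes express these genes cannot be read from ratios.

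The partners of cytoplasmic dynein were split. Of 20 listed dynactin subunits and dynein regulators, 13 had values at 6 h and 14 at 12 h, with medians of -0.02 and -0.40. At 6 h 1 was at least 2-fold higher and 1 lower, against 6.2% and 18.8% of all named genes. At 12 h 2 were higher (14.3%) and 5 lower (35.7%), against 14.5% and 20.5%. The adaptors and regulators Spag9, Bicd2 and Nde1 stood at -1.02, -0.84 and -0.90 at 6 h and at -1.83, -1.36 and -1.29 at 12 h, with probe SDs of at most 0.45. Picked with their values already known, the dynactin subunits Dctn2 and Dctn5 stood at 0.58 and 0.41 at 6 h and at 1.31 and 1.16 at 12 h, while Dctn4, picked likewise, stood at -0.02 and -1.20.

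The tracks themselves lay near 0 at 6 h. Of 16 listed tubulin, actin and tropomyosin genes 14 had values, between -0.27 and 0.68 at 6 h and between -1.32 and 0.77 at 12 h. Their medians were 0.34 and 0.02, and 3 (21.4%) were at least 2-fold lower at 12 h, near the 20.5% of all named genes. Tuba1b stood at 0.42 and -1.04 on 1 probe, Tubb5 at -0.27 (probe SD 0.24) and -1.32 (probe SD 0.60), and the tropomyosin Tpm2 at 0.49 and 0.77. Tubulin genes are near-identical and can share signal.

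Of the 7 genes low on both arrays, 6 had 2 or more probes on each. This comparison was chosen after the values were seen. Among heavy chains with 2 or more probes on each array, 6 of 23 (26.1%) were at least 2-fold lower on both, beside 7.33% of 5345 named genes with that many probes. Among motor genes of any chain with 1 probe on each array, 0 of 21 were, beside 12.2% of 4669 such genes. These 2 sets are unlike, since the first leaves out light and intermediate chains. None of those was at least 2-fold lower on both arrays, so with them the share would be below 26.1%. Of motor genes with 2 or more probes, 13 of 30 had all probes below 0 at 6 h, 3 all above 0 and 14 probes on both sides. At 12 h these counts were 15, 4 and 13 of 32. The same counts were not made over all named genes, so no excess among motor genes can be read from them. Repeated spots of a single clone, as for Myo7a, count as probes here.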

How the data were processed

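The deposited table holds a log2 ratio per spot for each of 2 arrays, for 42624 spots; the authors' normalization, scanner, background correction and spot filter are not given in the sources used here. The base was assumed: values run from -8.48 to 5.48. The direction is likely Cy5 (sheared) over Cy3 (control), per the labels' dyes. The median of an array's measured spots was subtracted from each value. GEO's platform annotation gave exactly 1 symbol to 21701 spots, and genes were summarised by the median over such probes. The 57 motor genes had 117 such spots, and 10 further spots with several symbols were left out. Promoter windows are those of RefSeq on GRCm38.p6.

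Members and lists were chosen with earlier results of these data known. Named were all cytoplasmic dynein and nonmuscle myosin subunits, members past 2-fold on both arrays, the extremes of each class, the 3 largest differences between arrays in each direction, the 3 largest probe SDs per array and the 3 largest values of each context list; the remaining members are given for completeness. Of the marker lists, 5 leukocyte markers had medians of 0.39 at 6 h (range -5.41 to 0.80) and 0.46 at 12 h (range -2.31 to 1.70). A list of regulators of myosin is not reported here as a whole. Counts use a 2-fold threshold. Gene medians were tested on simulated data. A planned comparison by protein length was not made, because protein sequences were not used here. Python 3.11.15, numpy 2.4.6, pandas 2.3.3 and matplotlib 3.10.9 were used.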

Additional observations from a re-analysis of the deposited data

Results flagged for a closer look

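No motor gene stood past 1.5-fold on opposite sides of 0 on the 2 arrays. Among the context genes, 3 did, and the difference between the arrays was not tested. Myl1, a skeletal muscle light chain, stood at -0.79 at 6 h and 0.67 at 12 h, a difference of 1.46. Myl7, an atrial light chain, stood at -1.46 and 0.66, a difference of 2.13. The mitotic kinase Aurkb stood at -0.72 and 0.73, a difference of 1.45.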

How the results depend on the processing

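With 1 array per time point the arrays give no error between cultures, and signal over background was not used here. The medians of the light chains, the heavy chains and all motor genes kept their sign under no centring, the mean of probes, 2 or more probes, genes on both arrays, several symbols kept, a common median absolute deviation and centred print blocks. The difference between light and heavy chains ranged from 0.642 to 1.35 at 6 h and from 0.744 to 1.68 at 12 h, lowest with several symbols kept.

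The counts moved more. Genes at least 2-fold lower numbered 19 at 6 h and 23 at 12 h without centring, 6 at 6 h with 2 or more probes, 19 at 6 h at 1.5-fold, and 4 and 7 at 3-fold, against 12 and 14. Genes at least 2-fold higher at 6 h, 1 as reported, numbered 0 with 2 or more probes, 3 when probes were averaged, 0 over genes on both arrays, 3 with a common deviation, 2 with blocks centred and 8 at 1.5-fold. At 12 h they numbered 2 with 2 or more probes and 8 at 1.5-fold, against 4. The light intermediate chains at 6 h had a median of 0.695 with 2 or more probes, where only Dync1li1 is left, against -0.12. The median change between arrays was below 0 with a common deviation (-0.05), without centring (-0.05) and with 2 or more probes (-0.12). Without centring every value is lower by the array median, and a 1.5-fold or 3-fold threshold changes counts by definition. Fewer genes are left with 2 or more probes or over genes on both arrays. The cause of the other shifts was not tested.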

Other observations

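The pooled SD between spots that carry a single clone was not below that between all probes of a gene. Over all named genes, the pooled SD between spots of the same clone was 0.90 log2 at 6 h (524 clones) and 0.997 at 12 h (579 clones). Between all probes of a gene it was 0.74 and 0.86. The latter includes the spots of the same clone and covers more genes, so separate groups are not set against each other here. Among motor genes, spots of a single clone differed by 2.62 at 6 h and 3.11 at 12 h for Kif2a, by 2.73 and 1.19 for Kif3a, and by 1.48 at 12 h for Dynlt3, in contrast with 0.39 and 0.08 for Myo7a. The 6 probes of Dynll1 had SDs of 0.13 and 0.19, below the pooled SD of repeated spots. This closeness was not particular to Dynll1, since the probe SD of Dync1h1 was 0.06 on each array.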
